A study of Mus musculus with 2 samples.

Results

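The SLC25 carriers are the family of membrane proteins that move metabolites across the inner mitochondrial membrane, and they were examined here in the inguinal white fat of mice without ApoE, with or without UCP1. Members were the genes whose platform symbol is Slc25a followed by a number, read by a probe set with exactly 1 gene symbol. The uncoupling proteins Ucp1, Ucp2 and Ucp3, which belong to the same protein family, were left out. This gave 46 carrier genes, read by 50 probe sets, of 19938 named genes in all. Of the 46, 33 had a mean log2 intensity over both arrays on or above the expression floor of 7.62 (an intensity of 196.9), which is the median over all probe sets with 1 symbol and not a detection limit.

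Both groups were male C57BL/6J mice kept at 23 °C that ate a high-fat diet for 9 weeks, starting when they were 9 weeks old. Both lacked ApoE, a lipoprotein ligand whose loss raises blood cholesterol, so neither is a wild-type control. The ApoE-KO group lacked ApoE alone and the DKO group was Ucp1-/-;ApoE-/-, lacking also UCP1, which lets thermogenic fat cells burn fuel without making ATP. RNA of 3 mice of a genotype was mixed and hybridised to 1 Affymetrix array, so 2 arrays make up the data. Without replicates no spread between mice is known, nothing below could be tested, and p-values are absent. The median intensity was 152.1 in the DKO array and 157.65 in the ApoE-KO array. Every difference is the log2 intensity in the DKO array less that in the ApoE-KO array, and a gene is counted when this difference is at least 1 in size, that is 2-fold.

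The labels were checked on the targeted genes. The Ucp1 probe set read 2230 in the DKO array and 219 in the ApoE-KO array, a direction opposite to the label unless the probes lie outside the disrupted exons. Their position is not known here, so "DKO array" and "ApoE-KO array" stand for the labels only, and every direction rests on them. Apoe, disrupted in both groups, stood at 502 and 589. Of 10 measured adipocyte markers 10 lay above the floor, with a median difference of 0.05, and 0 lay under it in either array.

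Mitochondria make ATP, oxidise fatty acids and build precursors for lipid, haem and nucleotides, and nearly every substrate of these pathways must cross the inner membrane through a carrier. SLC25 proteins are encoded in the nucleus and share a fold built of repeated pairs of membrane helices around a central substrate site. In brown and beige fat the carriers feed a dense mitochondrial network with acylcarnitines, ADP, phosphate and cofactors, and UCP1 itself is a carrier of this family that lets protons back into the matrix.

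The carriers were mixed in the size and sign of their differences. Of all 46, 6 were at least 2-fold higher in the DKO array, where 1.51% of all named genes were, and 0 were at least 2-fold lower, where 0.527% of all named genes were. Those 6 were Slc25a20, Slc25a33, Slc25a42, Slc25a17, Slc25a34 and Slc25a51. Restricted to genes above the floor, the background was 2.79% higher and 0.698% lower among 9891 genes. The median difference over all 46 was 0.13, beside -0.01 over all named genes. In all, 30 carriers (65.2%) were higher, beside 46.4% of all named genes, 15 were lower and 1 was equal. Above the floor, 25 of 33 (75.8%) were higher, beside 48.2% of all genes above it. The medians there were 0.37 for carriers and -0.01 for all genes. Since many differences are close to 0, the number higher of the 46 ranged from 30 to 37 under the other scalings, offset and probe set rule. For all genes, the share higher was taken only on the deposited values. Of the 46 differences, 23 were smaller than 0.2 in size. At a lower threshold of 1.5-fold, 11 carriers above the floor were higher and 1 was lower, beside 7.57% and 3.73% of genes above the floor. The 13 carriers below the floor had differences between -0.09 and 0.45, and 0 of them was counted.

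**Figure D1:**
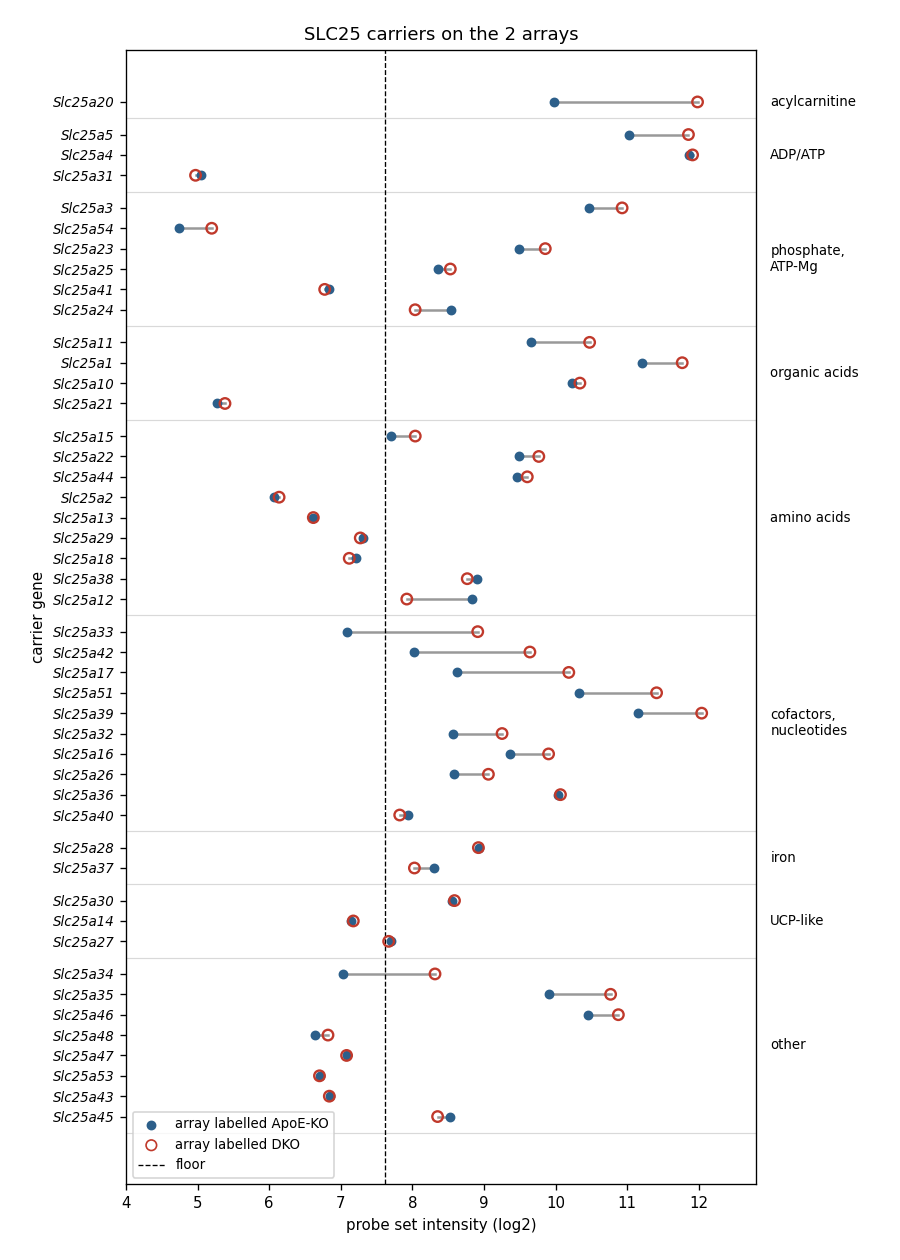
Intensity of each of the 46 carriers on a log2 axis, grouped by what they carry, with a filled point for the ApoE-KO array, an open point for the DKO array and the floor of 7.62 as a dashed line. Long bars stand for Slc25a20, Slc25a33, Slc25a42, Slc25a17 and Slc25a34, while Slc25a4, Slc25a36 and Slc25a28 have overlapping points.

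The acylcarnitine carrier had the largest difference of the family. Slc25a20 exchanges acylcarnitines for free carnitine and so brings long-chain fatty acids into the matrix for oxidation. Its probe set (10589076) read 4049 in the DKO array and 1005 in the ApoE-KO array, a difference of 2.01 or 4.03-fold, and it was number 24 from the top of the 9891 genes above the floor. Slc25a29 is its close relative in sequence and carries basic amino acids. It lay below the floor in both arrays, with intensities of 155 and 158 and a difference of -0.03. Of 6 listed partner genes of the carnitine route, 4 were measured, and these were also higher, by unequal amounts. Cpt2, which turns acylcarnitines back into acyl-CoA on the matrix side, read 3307 against 1125 (1.56), and Crat, which makes acetylcarnitine, differed by 0.86. The carnitine uptake transporter gene Slc22a5 differed by 0.69 and Cpt1a, which makes acylcarnitines at the outer membrane, by 0.20. Of these 4 partners, 1 was at least 2-fold higher and 0 lower, with a median of 0.77.

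The promoters of 4 carriers are shown because they belong to the pairs of relatives that differed most. They cover the 250 bases before the gene start in RefSeq (GRCm38.p6), 5′ to 3′ on the strand of the gene. Capitals mark each match, on either strand, to 1 of the sequence motifs searched. The GC box was searched as GGGCGG. The CCAAT box was searched by the letters in its name. For ETS factors the letters were CCGGAAG. The E-box was searched as CACGTG. The cyclic AMP response element was searched as TGACGTCA, and its core TGACG, which lies inside it, was searched as well. The core bound by many nuclear receptors was searched as AAGGTCA. The longer estrogen-related receptor element TCAAGGTCA contains that core. PPAR and NRF1 elements were searched too.
Slc25a20, chr9:108661886-108662135, plus strand: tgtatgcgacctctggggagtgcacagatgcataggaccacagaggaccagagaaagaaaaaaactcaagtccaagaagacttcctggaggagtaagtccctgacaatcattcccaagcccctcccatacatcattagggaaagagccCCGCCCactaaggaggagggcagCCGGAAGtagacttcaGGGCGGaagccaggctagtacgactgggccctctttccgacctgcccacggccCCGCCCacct
Slc25a29, chr12:108835877-108836126, minus strand: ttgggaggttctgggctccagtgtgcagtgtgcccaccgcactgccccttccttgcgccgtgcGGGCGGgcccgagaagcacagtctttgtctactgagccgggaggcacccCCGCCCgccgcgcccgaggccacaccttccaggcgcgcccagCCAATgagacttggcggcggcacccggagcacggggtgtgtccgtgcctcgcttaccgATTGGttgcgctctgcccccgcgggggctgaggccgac
Slc25a33, chr4:149774268-149774517, minus strand: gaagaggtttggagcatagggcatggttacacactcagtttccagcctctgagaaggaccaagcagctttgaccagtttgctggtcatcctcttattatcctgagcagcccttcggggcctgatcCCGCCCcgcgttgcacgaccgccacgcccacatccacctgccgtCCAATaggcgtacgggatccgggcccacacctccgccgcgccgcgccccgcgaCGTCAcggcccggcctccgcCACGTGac
Slc25a36, chr9:97111042-97111291, minus strand: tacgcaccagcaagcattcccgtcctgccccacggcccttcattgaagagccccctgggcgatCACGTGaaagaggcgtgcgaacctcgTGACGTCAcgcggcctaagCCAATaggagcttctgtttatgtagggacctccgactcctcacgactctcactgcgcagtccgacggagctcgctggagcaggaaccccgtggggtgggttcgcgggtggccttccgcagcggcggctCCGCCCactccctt

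Slc25a20 holds 3 GC boxes and 1 ETS match in this window, and Slc25a29 holds 2 GC boxes and 2 CCAAT boxes. The promoters of Slc25a33 and Slc25a36, pyrimidine nucleotide carriers whose differences were far apart, both hold the E-box, the CCAAT box and the GC box. The complete cyclic AMP response element is present in Slc25a36, the relative with a difference of 0.04, and its core alone in Slc25a33. RefSeq promoters were matched for 36 of the 46 carriers. Among these 36 genes, 25 (69.4%) held a GC box in at least 1 promoter, beside 35.4% of 27025 genes. The CCAAT box was found in 18 (50% of them, beside 37.5%), the E-box in 7 (19.4%, beside 6.86%), the ETS letters in 6 (16.7%, beside 7.83%) and the cyclic AMP core in 10 (27.8%, beside 19.8%). The complete cyclic AMP element was found in 2, Slc25a36 and Slc25a25 (5.56%, beside 1.77%). Of the 6 carriers counted as 2-fold higher, 5 had a matched promoter. Of these, 5 held a GC box and 4 a CCAAT box, beside 69.4% and 50% of the 36. The ETS letters were found in 2 of them, and the E-box and the cyclic AMP core in 1 each. The nuclear receptor core occurred in 1 carrier promoter, that of Slc25a34, beside 4.70% of genes. The whole estrogen-related receptor element, the PPAR element and the NRF1 element were found in 0 of the 36, beside 0.42%, 0.041% and 0.88% of genes. Base composition was not matched in these shares, and a match is a description of letters, not a binding site.

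The carriers of cofactors, with the pyrimidine nucleotide carriers Slc25a33 and Slc25a36 among them and the ADP/ATP carriers apart, held 4 of the 6 counted members. Of all genes above the floor, 2.79% were at least 2-fold higher. All 10 genes of this class had a mean above the floor, as did 33 of the 46 carriers. In the class 9 were higher in the DKO array, beside 25 of those 33 carriers and 48.2% of all genes above the floor. The median difference of the class was 0.78. Slc25a33, which carries pyrimidine nucleotides, read 482 against 136, a difference of 1.82. The lower value is under the floor, and raising it to the floor gave a difference of 1.29. Its relative Slc25a36 read 1074 against 1046 (0.04), and the second probe set of that gene gave 0.02. Under quantile normalization Slc25a36 turned to -0.01. Slc25a42, the coenzyme A carrier, read 799 against 261 (1.62 or 3.07-fold). Slc25a16, a relative also linked to coenzyme A, read 957 against 660 (0.54). Slc25a17, which carries coenzyme A and other cofactors in peroxisomes rather than mitochondria, read 1164 against 393 (1.57 or 2.96-fold). Slc25a51, the NAD carrier of the inner membrane, read 2723 against 1290 (1.08 or 2.11-fold), and of the counted members it lay nearest to the threshold.

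The remaining cofactor carriers stayed short of 2-fold. Slc25a39, needed for mitochondrial glutathione import, read 4215 against 2285 (0.88), while its relative Slc25a40 read 227 against 245 (-0.11). The second probe set of Slc25a40 had the opposite sign (0.15) at intensities of 123 and 111, under the floor, and the mean of both probe sets was 0.02. Slc25a32, a folate and flavin carrier, read 610 against 380 (0.68). Slc25a26, which imports S-adenosylmethionine, read 535 against 382 (0.49). In the synthesis of coenzyme A, Pank1, a pantothenate kinase, read 1775 against 271 (2.71) and Coasy, which catalyses the closing steps, 665 against 235 (2.83-fold). The other kinases Pank2, Pank3 and Pank4 stood between -0.21 and -0.12. Of the 7 genes of this list 2 were at least 2-fold higher, and the list median was 0.22. The 9 genes of mitochondrial folate and glutathione metabolism had a median of 0.20 with 0 past 2-fold, led by the glutathione synthesis genes Gclm (0.82) and Gss (0.80).

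**Figure D2:**
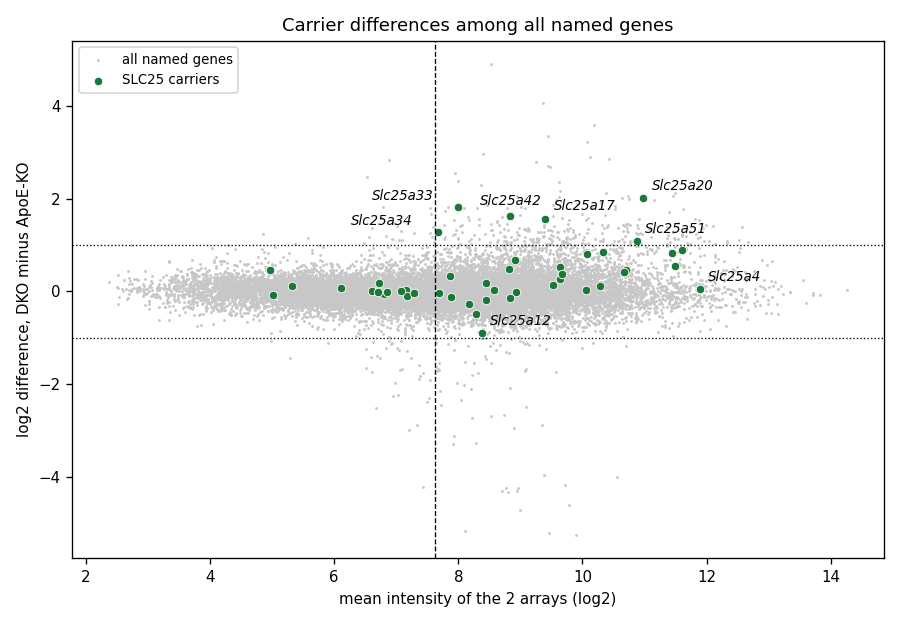
Difference on the log2 scale against the mean log2 intensity of both arrays for all 19938 named genes (grey) and the 46 carriers (green), with the floor as a dashed line and 2-fold as dotted lines. The 6 carriers above the upper dotted line are named, as are Slc25a12 at -0.91 and Slc25a4 at 0.04.

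The ADP/ATP carriers were split by isoform. These proteins export the ATP made in the matrix and import ADP. Slc25a5, the widespread isoform, read 3708 in the DKO array and 2082 in the ApoE-KO array, a difference of 0.83. Its other probe sets gave 0.77 and 0.80, but all list the same transcripts, and signal from near-identical gene copies cannot be told apart from that of the gene. Slc25a4, the isoform typical of heart and skeletal muscle, read 3859 against 3743, a difference of 0.04. Slc25a31, known from testis, read 31.4 and 33.1, far under the floor.

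Beside the isoform values stand those of skeletal muscle. All 19 measured muscle markers were lower in the DKO array, with a median of -4.17. Their summed intensity was 3760 in that array and 47058 in the ApoE-KO array, and 15 of the 19 lay under the floor in the former and 0 in the latter. Actin Acta1 read 376 against 5998 and creatine kinase Ckm 169 against 2639. What muscle transcripts added to the ApoE-KO value of Slc25a4, or of any other carrier, was not tested. In such tissue samples, fewer cells of a type and less RNA per cell cannot be told apart.

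Phosphate carriers had 0 members past 2-fold. Slc25a3, which supplies phosphate to the ATP synthase, read 1951 against 1412 (0.47). The calcium-regulated ATP-Mg/phosphate carriers went in different directions, with Slc25a23 at 927 against 718 (0.37), Slc25a25 at 370 against 327 (0.18) and Slc25a24 at 263 against 370 (-0.49). Slc25a41 and Slc25a54 lay under the floor in both arrays, and for Slc25a54 the difference of 0.45 rests on intensities of 36.7 and 26.8. Of the 14 ATP synthase genes matched by listed symbol, 13 were higher, 3 of them at least 2-fold, and the median was 0.60. Atp5o (1.15), Atp5j2 (1.12) and Atp5d (1.06) led this list. It leaves out Atp5pb (1.01), which it holds under the older symbol Atp5f1, and the subunit genes Atp5md (1.14) and Atp5mpl (1.03), which it does not hold and which were added after their values were seen, and each of these was also at least 2-fold higher. In the list, Atp5g1, a gene for the membrane ring subunit, stood at -0.50.

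Organic acid carriers were higher in the DKO array in 4 of 4 cases, beside 46.4% of all named genes, and 0 reached 2-fold. Above the floor 3 of 3 were higher, beside 48.2% of all genes above it. Slc25a11, the oxoglutarate-malate exchanger of the malate-aspartate shuttle, read 1424 against 810 (0.81). Slc25a1, which exports citrate for fatty acid and sterol synthesis in the cytosol, read 3491 against 2372 (0.56). The dicarboxylate carrier Slc25a10, a relative of Slc25a11, read 1296 against 1197 (0.11), and Slc25a21 lay under the floor (41.7 and 38.6). Beside Slc25a1 stand genes listed here together under citrate synthesis, citrate use and lipogenesis, not all of them specific to lipogenesis. Acly, which splits citrate into acetyl-CoA, stood at 1.27, the acetyl-CoA carboxylase gene Acacb at 1.30, the malic enzyme gene Me1 at 0.94 and Acaca at 0.90. Of the 6 measured genes of this list 6 were higher and 2 passed 2-fold, and the median was 0.92.

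Amino acid carriers included the lowest value of the family. Slc25a12 (aralar), the aspartate-glutamate exchanger of excitable tissues, read 243 in the DKO array and 454 in the ApoE-KO array, a difference of -0.91 or 1.87-fold lower. It was number 81 from the bottom of the genes above the floor and the one carrier lower by more than 1.5-fold. Slc25a12 is abundant in skeletal muscle, and the muscle markers given above were lower in the same array. Their part in the Slc25a12 value was not tested. Its relative Slc25a13 (citrin), known from liver, read 98.1 in both arrays, under the floor. Of 4 enzymes of the malate-aspartate shuttle, which works through Slc25a12 or Slc25a13 together with Slc25a11, 2 were at least 2-fold higher: the aspartate aminotransferase gene Got1 (1.33) and the malate dehydrogenase gene Mdh2 (1.03). Mdh1 stood at 0.79 and Got2 at -0.20.

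The other amino acid carriers differed little. Slc25a15, the ornithine carrier of the urea cycle, read 263 against 208 (0.34), and the glutamate carrier Slc25a22 read 871 against 722 (0.27). Slc25a44 imports branched-chain amino acids and is known for its role in brown fat. It read 779 against 704, a difference of 0.15. Of 7 listed genes for the breakdown of these amino acids in the matrix, 2 were at least 2-fold higher. These were Dld (2.63-fold) and Bckdha (2.08-fold), beside 2.79% of all genes above the floor at least 2-fold higher. Of the 7, 5 were higher, Bcat2 (-0.07) and Ppm1k (-0.05) were lower, and the list median was 0.64. Slc25a38, the glycine carrier of haem synthesis, read 436 against 478 (-0.14). Slc25a2 and Slc25a18 lay under the floor in both arrays with differences of 0.07 and -0.09.

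Neither iron carrier was higher as deposited, though Slc25a28 turned to 0.04 under median centring and to 0.02 under loess. The mitoferrins bring iron into the matrix for haem and iron-sulfur clusters. Slc25a28 (mitoferrin 2), the widespread form, read 485 against 490 (-0.01), and Slc25a37 (mitoferrin 1), known from erythroid cells, 261 against 316 (-0.27). Of 10 measured genes of haem and iron-sulfur synthesis 9 were higher, with a median of 0.57. Iscu, the cluster scaffold, was the 1 member past 2-fold (1.38), followed by Alas1 (0.85), which starts haem synthesis.

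The carriers classed here as like the uncoupling proteins showed almost equal values on both arrays. Slc25a14 (UCP5) read 145 against 142 (0.03), Slc25a27 (UCP4) 204 against 209 (-0.04) and Slc25a30 (KMCP1) 385 against 376 (0.03). Under quantile normalization, median centring and loess Slc25a27 turned positive, to at most 0.015. Ucp1 itself, given above, differed by 3.35 between the same arrays.

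Orphan and other carriers held the sixth counted member. Slc25a34, whose substrate is not firmly known, read 319 against 131, a difference of 1.29. The lower value is under the floor, and raising it to the floor gave a difference of 0.70, short of 2-fold. Its relative Slc25a35 read 1745 against 961 (0.86) on values well above the floor. Slc25a46, an outer membrane protein of the family that takes part in mitochondrial dynamics, read 1881 against 1399 (0.43). Slc25a45 read 327 against 370 (-0.18). Slc25a43, Slc25a47, Slc25a48 and Slc25a53 lay under the floor in both arrays, with differences between -0.01 and 0.19. Slc25a47 is known from liver, and its values of 135.40 and 135.42 were almost identical.

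**Figure D3:**
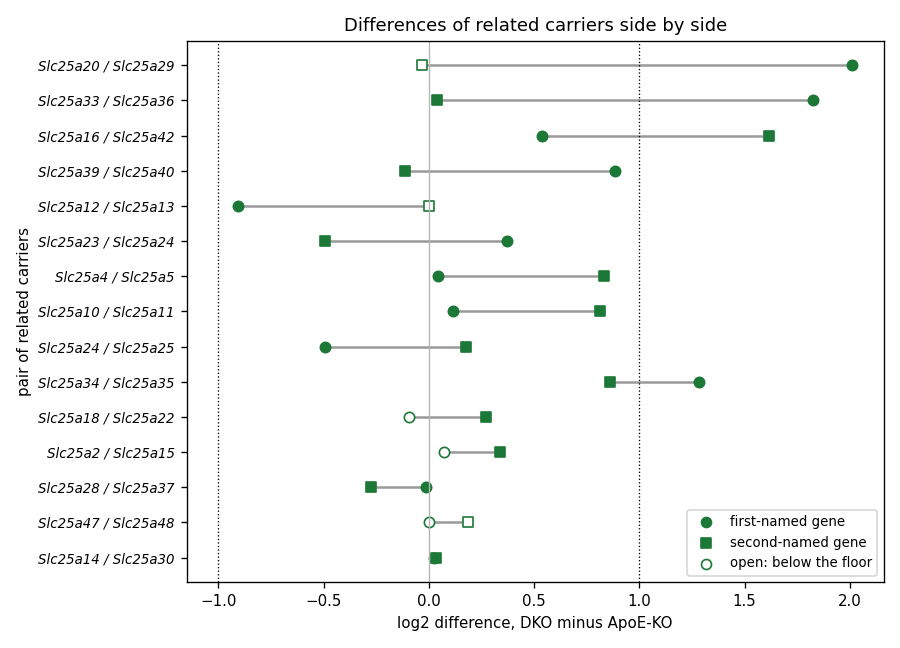
Log2 differences of the 15 pairs of related carriers, with a circle for the first-named and a square for the second-named gene, open where the gene lay below the floor, and 2-fold as dotted lines. The widest gaps are those of Slc25a20 over Slc25a29 and of Slc25a33 over Slc25a36. Slc25a33 and Slc25a34 are filled by their mean, though each lay under the floor in the ApoE-KO array.

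Related carriers did not always go together. In 3 of 15 pairs, with no count of unrelated pairs to set beside them, the differences lay at least 1 apart on the log2 scale. These were Slc25a20 and Slc25a29 (apart by 2.04), Slc25a33 and Slc25a36 (1.79) and Slc25a42 and Slc25a16 (1.08). In the latter pairs both genes had a mean above the floor. Slc25a33 was under it in the ApoE-KO array, and with that value raised to the floor it differed by 1.29, beside 0.04 for Slc25a36. Slc25a39 and Slc25a40 came close (0.997). Among pairs with both means above the floor, the gap was smallest for the mitoferrins (0.26) and for Slc25a34 and Slc25a35 (0.42). The latter gap and its rank rest on a Slc25a34 value under the floor in the ApoE-KO array. With that value raised to the floor, Slc25a34 stood at 0.70 and Slc25a35 at 0.86. Carriers form 4 pairs of adjacent coding genes, each with at least 1 gene under the floor in both arrays. Those under it were Slc25a43, Slc25a41, Slc25a54, Slc25a29 and Slc25a47, and the Slc25a54 value rests on intensities of 36.7 and 26.8. Slc25a5 and Slc25a43 on chromosome X stood at 0.83 and -0.01, Slc25a23 and Slc25a41 on chromosome 17 at 0.37 and -0.06, Slc25a24 and Slc25a54 on chromosome 3 at -0.49 and 0.45, and Slc25a29 and Slc25a47 on chromosome 12 at -0.03 and -0.00021.

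**Figure D4:**
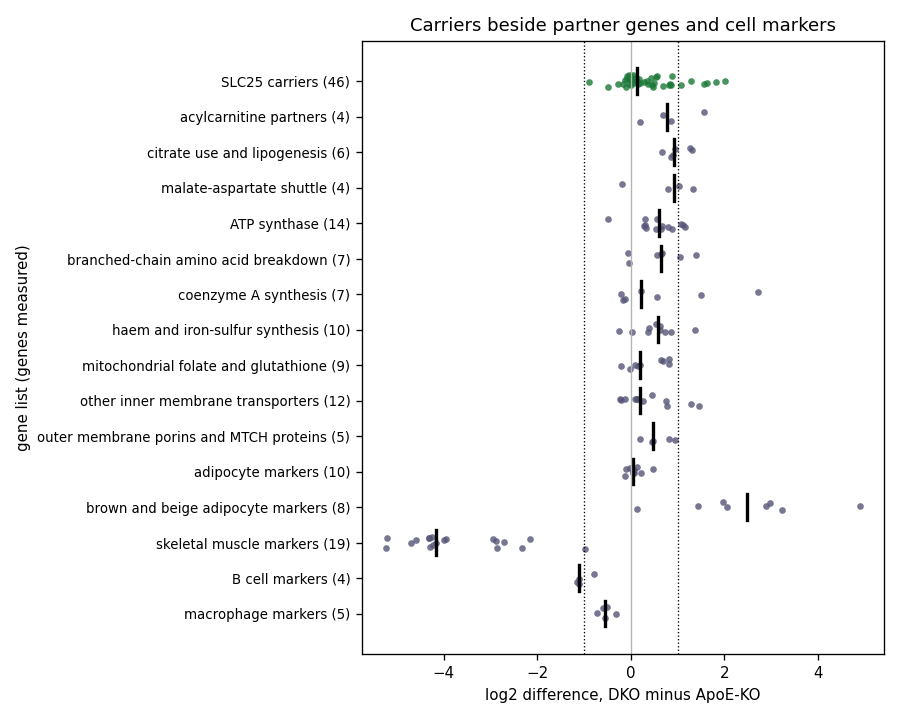
Log2 differences of the 46 carriers and of the genes of each partner or marker list, 1 point per gene, with the median as a black bar, 2-fold as dotted lines and the number of genes measured in brackets. The carrier median of 0.13 takes in 13 genes below the floor, of which the 10 partner lists hold 0, and it is 0.37 over carriers above the floor. The lowest muscle marker, Atp2a1 at -5.25, and the highest brown fat marker, Elovl3 at 4.90, each have an array under the floor and stand at -4.91 and 3.35 with that value raised to the floor.

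Mitochondrial transporters of other families were also mixed. Of 12 such inner membrane genes 2 were at least 2-fold higher, Letm1 of potassium and calcium exchange (1.45) and the pyruvate carrier gene Mpc1 (1.28), and the median was 0.20. Abcb8, an ABC transporter (0.77), and Sfxn5 of the sideroflexins (0.74) followed. In the outer membrane, 5 of 5 genes were higher and 0 reached 2-fold, with Mtch2, a distant SLC25 relative, at 0.93 and the porin genes Vdac1, Vdac3 and Vdac2 at 0.82, 0.46 and 0.45. The brown and beige adipocyte markers, of which 7 of 8 were at least 2-fold higher, had a median of 2.48 and a summed intensity of 15840 against 2911. Of these 8 genes 0 lay under the floor in the DKO array and 2 did in the other. Immune markers were lower, with a median of -1.11 over 4 B cell genes and -0.57 over 5 macrophage genes. The part of these cell types in the carrier values was not tested.

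Across the 46 carriers, the difference tended to be larger for genes of higher mean intensity (Spearman's rho 0.49, n = 46). Over all 19938 named genes rho was 0.02. The 46 take in 13 carriers below the floor, with differences from -0.09 to 0.45, and rho without them was not computed. The genes share the same 2 arrays and are not replicates, so this is a description of these arrays. Few arrays limit the precision of every value above.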

How the data were processed

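The authors deposited 1 linear intensity per probe set and array, for 35557 probe sets and values from 3.55 to 23636. The sources used here do not say how background, probe summaries and array scaling were handled. Per the labels' protocols, Trizol RNA was labelled with an Affymetrix sense-target kit. Log2 was taken with no pseudocount. Gene names came from the platform annotation (21789 with 1 symbol, 1621 with several, 12147 unnamed). For a gene with several probe sets (3 carriers), the probe set brightest on average was taken. With 1 array per genotype no test was possible, so genes were described by size. The members, role classes, 15 gene lists, pairs and promoter motifs were chosen with earlier results of these data known. All carriers were named, and of each partner list up to 4 genes above the floor, those that differed most; other list members named were chosen after their values were seen, as were Slc25a33 and Slc25a36 for their promoters. Protein sequences were not used here. Alternatives were quantile normalization, median centring, loess (span 0.4), an offset of 50, the mean of probe sets, other floors and thresholds, and, added after seeing the data for the counts, the floor as lowest value. Python 3.11.15, pandas 2.3.3 and statsmodels 0.14.6 were used.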

Additional observations from a re-analysis of the deposited data

How the results depend on the processing

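Under quantile normalization, median centring, loess, an offset of 50 and the mean of probe sets, each of the 46 carriers kept its side of the 2-fold threshold, and the scalings moved the median of all genes by at most 0.05. With intensities under the floor set to the floor, 45 kept it and Slc25a34 dropped to 0.70. The 6 carriers at least 2-fold higher became 3 with the floor at percentile 75, 11 at 1.5-fold and 3 at 3-fold, and the 0 lower became 1 at 1.5-fold. The share of genes above the floor at least 2-fold higher (2.79%) became 1.51% without any floor, 4.32% for a floor at percentile 75, 7.57% at 1.5-fold and 0.526% at 3-fold, and the share lower became 3.73% and 0.384% at 1.5-fold and 3-fold. These settings move counts by construction. With members above the floor only, the median of all carriers became 0.37, of ADP/ATP carriers 0.44, of organic acid carriers 0.56, of amino acid carriers 0.15 and of the other carriers 0.64. With the mean in place of the median, the family gave 0.35, ADP/ATP carriers 0.27, phosphate carriers 0.15 and other carriers 0.32, and an offset of 50 brought phosphate carriers to 0.16. Medians were called moved when they shifted by over 0.1. No paired analysis was possible because each genotype has 1 array. Signal over background cannot be judged, since the deposited values carry no detection call.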
